A study of Mus musculus with 12 samples.

Results

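The 9 genes described here are Tex11, Tex13b, Tex14, Tex15, Tex19.1, Tex101, Dpep3, Dcaf8l and Strc, out of 56691 genes in the deposited tables. They were picked by symbol because they were low or uncounted in control tissue and higher in Dnmt1 knockout tissue, so their knockout and control values are a description and carry no test. RNA came from palatal shelves, the paired ridges of the embryonic upper jaw that later fuse into the roof of the mouth, taken from mouse embryos on gestational day 12. The 12 libraries form 4 groups of 3. In the knockout group Dnmt1, whose product restores methylation on the new DNA strand after replication, was conditionally knocked out and no drug was given, whereas control embryos were wild type and untreated. AzadC embryos were wild type and exposed to 5-aza-2'-deoxycytidine, a cytosine analogue that traps DNA methyltransferases, and vehicle embryos were wild type and given its vehicle. The labels' protocols state that each library pooled palatal shelves of 2 embryos, while the design text speaks of 3 pooled animals. Single embryos were therefore not measured, and p-values cover the spread between pools. Not given in the sources used here are which promoter drove Cre, which exons were removed and how and when AzadC was dosed.

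Many genes that serve only the germ line have promoters that are methylated in body tissues and stay untranscribed there, and loss of maintenance methylation is known to release a part of them. The Tex symbols stand for "testis expressed", a naming by tissue that joins unrelated proteins. Tex11 encodes a meiotic protein that promotes crossing over, Tex14 a protein of the bridges that join dividing germ cells, Tex15 a partner of the PIWI pathway that methylates transposons in fetal male germ cells, and Tex19.1 a protein that restrains retrotransposons. Tex101 encodes a glycolipid-anchored surface protein of germ cells that is needed for sperm surface proteins to mature, and Dpep3 encodes a membrane-bound dipeptidase that forms a complex with TEX101. Tex13b is an X-linked gene of spermatogonia. Dcaf8l carries the symbol of a relative of Dcaf8, a substrate receptor of the CUL4 ubiquitin ligase. Strc is the exception by tissue, since it encodes stereocilin, a protein that links the stereocilia of outer hair cells in the inner ear.

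Library totals ran between 12640536 and 33113790 counts. Dnmt1 itself stood at 201, 179 and 191 CPM (counts scaled to a common library size) in knockout libraries and at 286, 278 and 258 CPM in control libraries. It fell by 0.52 on the log2 scale (SE 0.07, edgeR adjusted p = 0.000369), and counts per gene do not show whether the removed exons are among them. Against vehicle, at 452, 451 and 448 CPM, it fell by 1.24 (SE 0.07, edgeR adjusted p = 1.62e-07), and AzadC libraries had 408, 482 and 411 CPM. All 9 palatal mesenchyme markers were present, with summed levels of 860.0 to 1316 CPM in knockout libraries and 1151 to 1585 CPM in control libraries. Against control, edgeR called 0 of them higher and 2 lower. Meox2 fell by 0.98 (edgeR adjusted p = 0.00374) and Twist1 by 0.76 (edgeR adjusted p = 0.00319). Against vehicle, edgeR called only Twist1, also lower (edgeR adjusted p = 0.0107). The 12 macrophage markers were all higher in knockout tissue, at summed levels of 337 to 373 CPM in knockout libraries and 72.5 to 101 CPM in control libraries, and also against vehicle, at 95.4 to 116 CPM. Of 10 skeletal muscle markers, 8 were higher, at summed levels of 138 to 834 CPM in knockout libraries and 7.3 to 79.4 CPM in control libraries, but 0 were called against vehicle by edgeR or DESeq2, with 6 at an unadjusted p under 0.05 by edgeR and 3 by DESeq2. Vehicle libraries, at 34.1 to 325 CPM, overlapped the knockout range. AzadC 1 stood apart in Xist, the RNA of X inactivation, at 0.866 CPM against 737 to 1305 CPM in the other AzadC and vehicle libraries, and it had the highest Y-linked sum, at 243 CPM. The part of these shifts in the values of the 9 genes was not tested. Fewer cells of a type and less RNA per cell cannot be told apart in these bulk samples.

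Of the 9 genes, 5 had no count in any of the 9 wild type libraries: Dcaf8l, Tex13b, Strc, Tex101 and Dpep3. All 9 were higher in every knockout library than in every wild type library. That separation held for 7% of all 17335 genes tested, and since the choice of the 9 fixed it, nothing is read from it. The 5 uncounted genes belong to 215 genes that had a count in all 3 knockout libraries and none in the other 9 libraries. The same pattern was seen for 8 genes in control, 3 in AzadC and 0 in vehicle libraries. Ranked by knockout level among the 215, Dcaf8l was at place 2, Tex13b at 5, Strc at 6, Tex101 at 11 and Dpep3 at 70.

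Dcaf8l, listed as Pet2 in GENCODE M21 (GRCm38, chrX:89403848-89409689, minus strand), had the highest counts of the 9 genes. It had 736, 836 and 551 counts in knockout libraries and 0 in all others. Its knockout level was 35.8 ± 4.64 CPM (SD, n = 3). With 0 control counts taken as a floor of 3 over that group, or 0.0388 CPM, this is at least 921-fold higher. Tex13b (chrX:140808307-140813433, minus strand) had 280, 368 and 224 counts in knockout libraries, again with 0 in all others. It reached 14.7 ± 2.94 CPM in knockout tissue, at least 379-fold above the control floor. Strc (chr2:121363728-121387168, minus strand) had 235, 315 and 167 counts, or 12 ± 3.02 CPM, in knockout libraries, at least 310-fold above the control floor. Every knockout library thus held counts of this hair cell gene and no wild type library did. Its last bases overlap Ckmt1, a mitochondrial creatine kinase gene on the opposite strand, and whether counting used strand is not given in the sources used here. Ckmt1 had 1.32, 3.54 and 2.9 CPM in knockout libraries and 2.11, 1.53 and 2.22 CPM in control libraries, where Strc had no count.

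Tex101 and Dpep3, whose proteins pair on germ cells, were both counted in knockout tissue alone, at different levels. Tex101 (chr7:24668007-24676675, minus strand) had 95, 104 and 75 counts in knockout libraries. Its 4.63 ± 0.422 CPM was at least 119-fold above the control floor, and its spread among knockout libraries was the narrowest of the 9 relative to the mean. Dpep3 (chr8:105973513-105979429, minus strand) had only 20, 10 and 11 counts in knockout libraries. Its 0.685 ± 0.212 CPM was at least 17.6-fold above the control floor. Against the vehicle floor of 0.0416 CPM, the bounds for the 5 uncounted genes ran between 16.5-fold for Dpep3 and 860-fold for Dcaf8l.

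**Figure D1:**
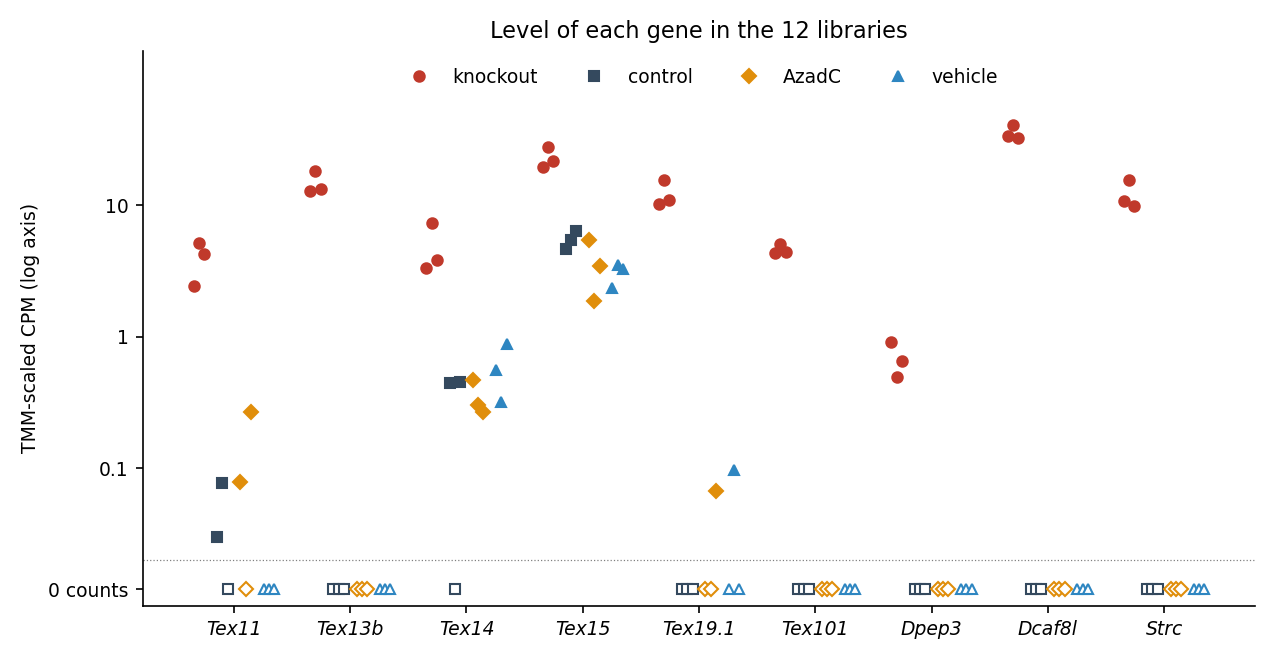
Level of each gene in the 12 libraries, as CPM on a log axis, with 1 symbol per library and open symbols on the lowest line for libraries with 0 counts. The red knockout circles lie above all other symbols for each gene; Tex14 and Tex15 have filled symbols in all 4 groups, whereas 5 genes have none outside knockout.

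Of the other 4 genes, Tex19.1 and Tex11 were almost uncounted in wild type tissue. Tex19.1 (chr11:121146143-121148319, plus strand) had 226, 315 and 185 counts in knockout libraries and 0 in control libraries. It stood at 12.2 ± 2.82 CPM in knockout tissue, at least 315-fold above the control floor. Elsewhere it had 2 counts, both in AzadC 3, and 3 counts, all in vehicle 2. Tex11 (chrX:100838648-101059667, minus strand) had 53, 105 and 72 counts in knockout libraries and 1, 2 and 0 in control libraries. Its knockout level was 3.95 ± 1.4 CPM, and the ratio of counts to control was 100, with an exact 95% interval of 33.8 to 489 that covers counting error only. Against vehicle, where it had no count, it was at least 94.9-fold higher, and Tex19.1 had a ratio of counts of 295 (exact 95% interval 101 to 1434).

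Tex14 and Tex15 were counted in wild type tissue too. Tex14 (chr11:87405065-87555823, plus strand) stood at 3.33, 7.37 and 3.85 CPM in knockout libraries and at 0.447, 0 and 0.456 CPM in control libraries. In vehicle libraries it stood at 0.556, 0.321 and 0.887 CPM. The ratio of mean CPM was 16.1 against control and 8.25 against vehicle, with no overlap. Tex15 (chr8:33516738-33585582, plus strand) had the highest wild type level of the 9, with 19.6, 28 and 21.6 CPM in knockout libraries and 4.62, 5.44 and 6.33 CPM in control libraries. It had 2.35, 3.53 and 3.3 CPM in vehicle libraries. The ratio of means was 4.22 against control and 7.53 against vehicle. These differ because every vehicle library lay below every control library, a ratio of 0.561. Over all genes tested, 11.5% were higher in every control library than in every vehicle library. For Tex14 the vehicle mean was 1.95 times the control mean, with overlapping libraries.

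Promoter sequences were available from RefSeq (GRCm38.p6) for 6 of the 9 genes. The 250 bases before the start site are printed for 4 of them, and for Tex19.2, the paralogue of Tex19.1, because methylation falls on CG dinucleotides and the genes differ in how many they hold. Each runs 5′ to 3′ on the strand of its gene, with every CG in capitals. The windows are chrX:140813434-140813683 on the minus strand for Tex13b, chr11:121145893-121146142 on the plus strand for Tex19.1, chr7:24672051-24672300 on the minus strand for Tex101, chr2:121380941-121381190 on the minus strand for Strc and chr11:121118678-121118927 on the minus strand for Tex19.2.
Tex13b: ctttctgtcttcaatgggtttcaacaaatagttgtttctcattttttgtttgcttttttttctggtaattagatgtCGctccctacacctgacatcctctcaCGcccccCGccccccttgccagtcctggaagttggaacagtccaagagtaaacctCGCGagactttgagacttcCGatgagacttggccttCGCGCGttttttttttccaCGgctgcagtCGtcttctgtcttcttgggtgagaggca
Tex19.1: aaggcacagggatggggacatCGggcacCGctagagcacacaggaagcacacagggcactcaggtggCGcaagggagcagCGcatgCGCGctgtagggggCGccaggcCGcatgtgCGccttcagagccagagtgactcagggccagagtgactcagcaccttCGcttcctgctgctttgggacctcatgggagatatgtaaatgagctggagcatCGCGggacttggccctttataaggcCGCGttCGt
Tex101: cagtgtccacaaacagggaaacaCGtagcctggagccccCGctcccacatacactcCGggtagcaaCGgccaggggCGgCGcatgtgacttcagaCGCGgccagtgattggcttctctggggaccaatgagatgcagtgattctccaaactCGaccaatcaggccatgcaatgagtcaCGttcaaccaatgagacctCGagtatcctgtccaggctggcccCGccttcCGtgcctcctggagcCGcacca
Strc: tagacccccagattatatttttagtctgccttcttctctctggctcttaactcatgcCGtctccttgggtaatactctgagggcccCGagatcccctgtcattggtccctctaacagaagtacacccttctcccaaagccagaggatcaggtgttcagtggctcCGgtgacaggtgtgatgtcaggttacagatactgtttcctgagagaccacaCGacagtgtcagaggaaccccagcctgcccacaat
Tex19.2: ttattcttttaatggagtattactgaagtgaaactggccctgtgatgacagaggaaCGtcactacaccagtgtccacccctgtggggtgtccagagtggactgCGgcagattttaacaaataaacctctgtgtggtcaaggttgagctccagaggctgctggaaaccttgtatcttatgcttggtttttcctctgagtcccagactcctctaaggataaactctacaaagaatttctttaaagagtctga

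The windows held 17 CG for Tex14, 15 for Tex19.1, 14 for Tex101, 11 for Tex13b, 10 for Dpep3 and 4 for Strc, against 2 for Tex19.2. Over all 32851 promoters of the table the median was 6, with quartiles of 2 and 16. Tex14 thus lay above the upper quartile, the other 4 germ cell genes with an entry lay between the median and that quartile, and Strc lay below the median. The Tex14 window also holds the start of Rad51c, which lies 111 bases from that of Tex14 on the opposite strand. Rad51c had a mean of 12 CPM in knockout and 12.2 CPM in control tissue. The 17 CG thus lie in the start region of both genes, and Tex14 is among the 6 promoters counted below. The ratio of observed to expected CG was 0.78 for Tex13b, 0.73 for Tex14, 0.64 for Tex19.1 and for Tex101, 0.47 for Dpep3 and 0.25 for Strc, against 0.16 for Tex19.2 and a median of 0.37. Of the 6 promoters, 5 held 10 or more CG, or 83.3%, compared with 37.8% of all promoters. Among the other genes counted only in knockout, 99 of 210 had a promoter entry, and 6 of those, or 6.1%, held 10 or more. Their median was 3 CG, against 12.5 for the 6 genes. These sets are not alike, since Tex14 and Tex19.1, with the most CG, also had counts outside knockout. Of the 6, those counted only in knockout, Tex101, Tex13b, Dpep3 and Strc, held 14, 11, 10 and 4 CG. The cut of 10 equals the count of Dpep3, so the 83.3% rests on where it was drawn. No test was made of these counts, and methylation was not measured in these libraries. The motif CACGTG was in none of the 6 windows and in 6.02% of all promoters. The motif GGCGGGA, read on both strands, was in that of Tex14 and in 9.8% of all promoters, and no match overlapped another motif.

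**Figure D2:**
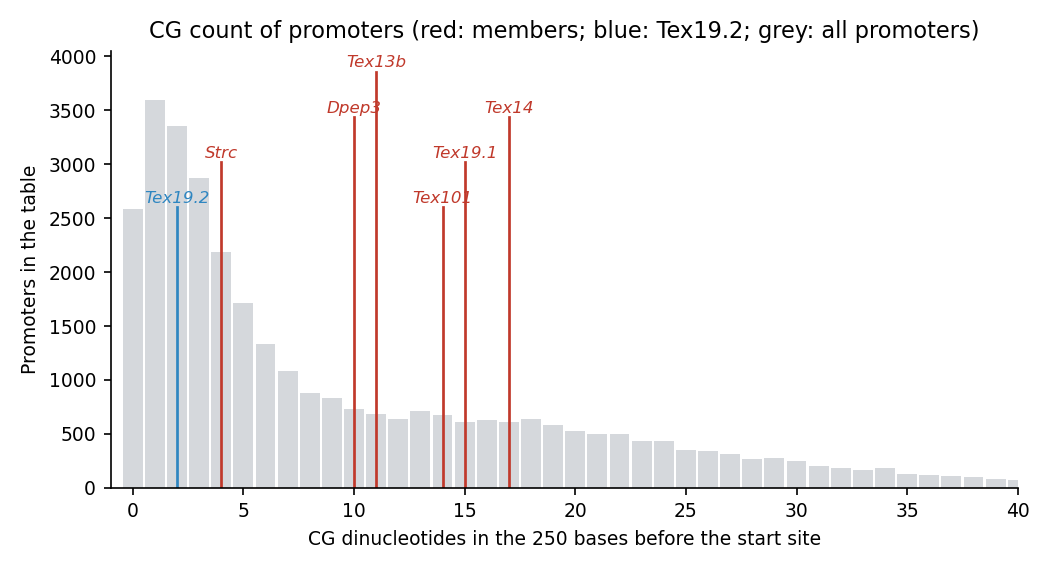
Number of promoters (grey bars, all 32851 promoters, axis ending at 40) by the count of CG dinucleotides in the 250 bases before the start site, with lines for 6 of the 9 genes in red and for Tex19.2 in blue; line height has no meaning. The red lines stand at 4 to 17, and Tex19.2 stands at 2.

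Where transcripts of a gene differ in length, the tables bear on which annotated start was used. They give a mean transcript length, in which the counting program weights each transcript by its estimated share. For Tex101 it was 1059 bases in all 3 knockout libraries, the length of Tex101-201, which starts at base 24672050, next to the window shown. The other Tex101 transcripts, of 1220 and 1161 bases, start at base 24676675. For Strc the mean length was 4129, 4805 and 4851 bases in knockout libraries, above the 2067 bases of the longest of the other listed transcripts, so Strc-201, of 5756 bases, held the larger estimated share. Strc-201 starts at base 121380940, also next to its window. Tex19.1 had mean lengths of 1655, 1601 and 1682 bases, close to the 1745 bases of Tex19.1-201.

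Tex14 was less even. Its mean length was 1539, 3401 and 4763 bases in the 3 knockout libraries, where Tex14-201, the only long transcript listed, has 4763 bases and the others have 444 to 658. Knockout 3 thus had its Tex14 estimate on the long transcript alone, and knockout 1 had a large share on short ones. Tex15 had mean lengths of 4269, 4235 and 4117 bases in knockout libraries and 5265, 4198 and 4972 bases in control libraries, near the 4014 bases of a shorter Tex15 transcript and under the 8405 bases of the longest. Knockout libraries lay within a narrower range than control libraries, and the groups overlapped.

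Levels of different genes can be compared per length, as TPM, in which counts are divided by transcript length and scaled to a common total. In knockout tissue Tex13b had 14.8 ± 3.31 TPM, Dcaf8l 13.9 ± 1.72 TPM and Tex19.1 13.4 ± 3.44 TPM (SD, n = 3 each), and these 3 overlapped. Below them and apart from them were Tex15 at 8.88 ± 1.59 TPM and Tex101 at 8.62 ± 0.809 TPM, which overlapped each other. Then came Strc at 4.23 ± 0.94 TPM, Tex14 at 2.92 ± 1.42 TPM and Tex11 at 2.14 ± 0.704 TPM, with overlap between neighbours. Dpep3 was lowest and apart, at 0.717 ± 0.227 TPM. Dcaf8l, with a transcript of 4182 bases, led in counts and overlapped Tex13b per length. The TPM of Tex14 was 3.92, 3.54 and 1.3 in the 3 knockout libraries, an order unlike that of its CPM, as the assigned length enters TPM.

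**Figure D3:**
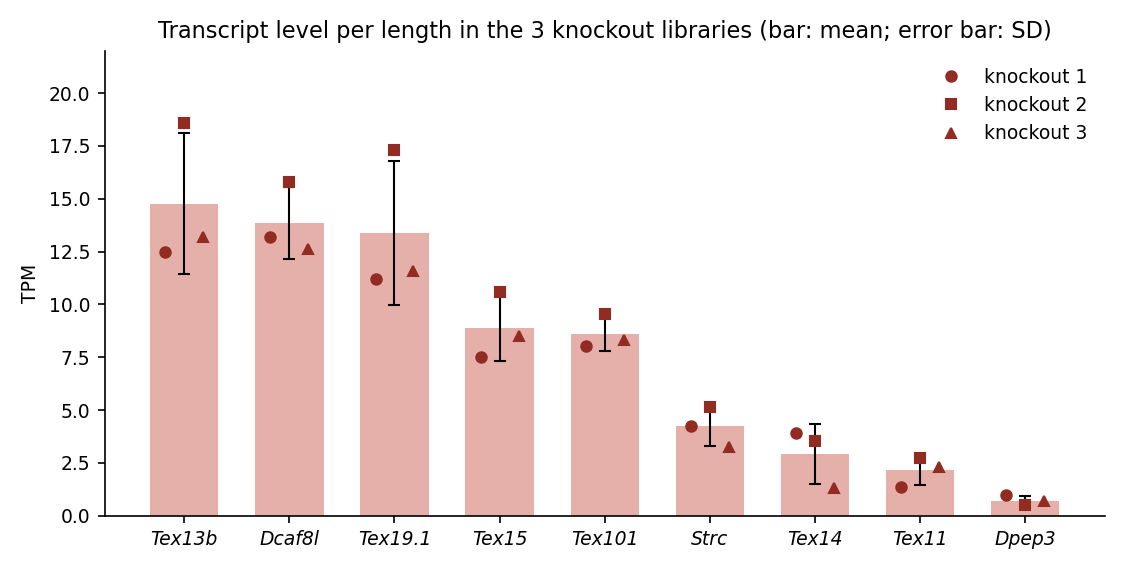
TPM of the 9 genes in the 3 knockout libraries (points), with the mean as a bar and the SD as an error bar, in order of the mean. Tex13b, Dcaf8l and Tex19.1 share the top, at 11.2 to 18.6 TPM, and Dpep3 lies lowest, at 0.51 to 0.96 TPM.

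The genes were mostly highest in the same knockout pool. Knockout 2 had the highest CPM for 8 of 9, and Dpep3, with its few counts, was highest in knockout 1. The ratio of knockout 2 to knockout 1 was 2.21 for Tex14, 2.13 for Tex11, 1.5 for Tex19.1, 1.44 for Strc, 1.43 for Tex15, 1.42 for Tex13b, 1.22 for Dcaf8l, 1.18 for Tex101 and 0.539 for Dpep3. Knockout 2 to knockout 3 gave 1.92 for Tex14, 1.57 for Strc and 1.15 for Tex101. The summed muscle markers were highest in knockout 1, at 834, 393 and 138 CPM in knockout 1, 2 and 3, as were the macrophage markers, at 373, 353 and 337 CPM. Mesenchyme and epithelium markers were highest in knockout 3. Highest in knockout 2 were Y-linked genes (115, 165 and 84.6 CPM), endothelial markers (344, 359 and 288 CPM) and neuronal markers (38.1, 42 and 38.8 CPM). The part of cell type or sex make-up in this order was not tested, and the share of all genes highest in knockout 2 is not given here.

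Levels across the 12 libraries were most alike to the mean of the 9 genes for Sohlh2, Xlr3c, Tuba3b, Magea13, Mov10l1 and Rhox6, each with Pearson's r of 0.999 on log2(CPM + 0.5) among 14370 genes searched. Left out of the search were Gm and Rik names, pseudogenes, genes with no symbol and genes absent from GENCODE M21. The ranking is a description over 12 libraries in which the knockout contrast sets the value. Sohlh2, which encodes a regulator of early germ cell differentiation, had 43.9, 81.7 and 53.2 CPM in knockout libraries, and outside them it was counted in AzadC 3 alone. Mov10l1, an RNA helicase that makes piRNAs, had 14.7, 19.6 and 13.4 CPM in knockout libraries. Both were highest in knockout 2. The values of Xlr3c and Tuba3b are uncertain, because each has a near-identical copy.

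AzadC against vehicle is the comparison that shares no library with the choice of the genes. Only 4 of the 9 had a count in either group, and the other 5 passed the filter on low counts through their knockout levels and could not be called here. Of the 4, 0 were called by edgeR at an adjusted p under 0.05 or by DESeq2, with 1 at an unadjusted p under 0.05 by each. That count was also 0 without AzadC 1. Only 2 of all 17335 genes tested were called by edgeR, or 0.0115% (0.00577% higher and 0.00577% lower), and so edgeR made few calls here. DESeq2 called Lyz2 (DESeq2 adjusted p = 0.00279) and Krt5 (DESeq2 adjusted p = 0.0327) among others, and its total is not given here. Tex13b, Tex101, Dpep3, Dcaf8l and Strc had 0 counts in all AzadC and all vehicle libraries. With 59252046 counts over the AzadC group, 0 counts allow a level of up to 0.0507 CPM, and the knockout level of Dcaf8l was at least 706-fold above that. Tex19.1 had 2 counts in AzadC and 3 in vehicle tissue, both too few for a fold.

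Tex11 was the gene past the unadjusted threshold. It had 1, 0 and 8 counts in AzadC libraries and 0 in all vehicle libraries, so that 8 of its 9 counts came from AzadC 3 and the groups overlapped at 0. The mean level was 0.115 CPM in AzadC tissue, at least 2.77-fold above the vehicle floor, and the knockout level was 34.3 times the AzadC level. The edgeR adjusted p was 0.618, and over the alternatives that gave a value the adjusted p was 0.163 to 0.928. With only AzadC and vehicle libraries in the fit, Tex11 and Tex14 were too low to be tested. In AzadC tissue, Tex14 had 0.472, 0.303 and 0.267 CPM, against 0.556, 0.321 and 0.887 CPM in vehicle tissue. The fitted log2 change was -0.80 (SE 0.74, edgeR adjusted p = 0.932). Tex15 had 5.43, 1.88 and 3.44 CPM in AzadC libraries and 2.35, 3.53 and 3.3 CPM in vehicle libraries. Its fitted log2 change was 0.19 (SE 0.30, edgeR adjusted p = 0.963). Without AzadC 1 it was -0.18. Both pairs of groups overlapped.

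Many of the other Tex genes were uncounted everywhere or present everywhere. Besides the 6 described, 34 symbols start with Tex and a digit, and 13 of these had 0 counts in all 12 libraries. Another 6, Tex261, Tex10, Tex9, Tex264, Tex2 and Tex30, had 10 CPM or more in every library. In 5 of the 34, counts were found in knockout libraries but in none of the 9 wild type libraries. Of those 5, only Tex12 had enough counts to be tested, and the share of all genes with that pattern is not given here. Tex261 had 86.7 ± 1.41 CPM in knockout and 82 ± 3.33 CPM in control tissue, with a log2 change of 0.08, and was not called. Only 9 of the 34 had enough counts to be tested. The 1 called in knockout against control was Tex12, higher, while 7.83% of all genes tested were called higher and 6.43% lower. Tex12, which encodes a protein of the central element of the synaptonemal complex, had 0.776, 0.639 and 0.947 CPM in knockout libraries and 0 counts in all others. It was at least 20.3-fold higher (edgeR adjusted p = 0.00545). With no other counts, Tex12 passed the filter on low counts through its knockout level and could be called only as higher. The median log2 change of the 9 tested was 0.08, and none was called in AzadC against vehicle by edgeR or DESeq2, with 1 at an unadjusted p under 0.05 by edgeR and 0 by DESeq2.

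Close relatives of Tex19.1 and Tex13b had few or no counts. Tex19.2, next to Tex19.1 on chromosome 11, had 0.0912, 0.492 and 0.118 CPM in knockout libraries, 0.0334 CPM in AzadC 3 and 0 elsewhere. At 14 knockout counts against 726 for Tex19.1, it was too low to be tested. Tex13d had 0.0912, 0.0983 and 0.296 CPM in knockout libraries and 0 elsewhere, while Tex13a, Tex13c1 and Tex13c3 had no count. The 9 genes had whole counts in every library within 0.005, as is the case when no read is divided between gene copies. Among the other Tex genes at 0 throughout, 10 of 13 had a promoter entry, with a median of 2.5 CG and at most 5. Of those with a count, 18 of 21 had an entry, with a median of 5 CG.

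**Figure D4:**
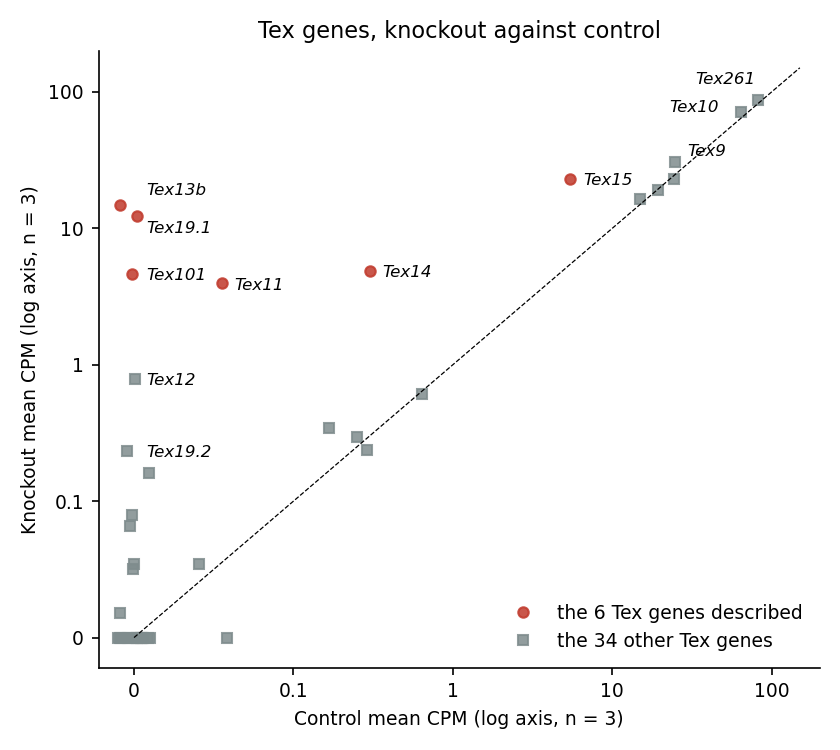
Mean CPM of 40 Tex genes in knockout (vertical) and control tissue (horizontal), n = 3 each, on log axes with 0 drawn at the lowest tick and points at 0 control CPM shifted sideways at random so that they can be seen. The 6 genes described (red) lie above the dashed line of equal levels; Tex261, Tex10 and other widely used Tex genes lie near it, and many grey points sit at 0 in both groups.

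Known partners, relatives and genes of the same pathway or tissue were followed on 8 lists, with 77 of 78 genes found and 49 tested. All are called partner genes here, though relatives and genes of the same tissue need not bind the proteins. No list was drawn up for Tex13b. In knockout against control 15 were called higher and 3 lower, against 7.83% and 6.43% of all genes. Against vehicle these counts were 9 and 1, where 6.7% and 4.13% of all genes were called. In AzadC against vehicle no partner was called by edgeR or DESeq2, and 1 had an unadjusted p under 0.05 by each. The lists were drawn up with earlier results of these data known, so their counts are not independent evidence.

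Of the meiotic crossover genes around Tex11, 8 of 11 found were tested, and 5 were higher and 0 lower in knockout than in control tissue. Of those 5, Ccnb1ip1, M1ap and Shoc1 had means of 0.0128, 0.0525 and 0.105 CPM in control tissue. They passed the filter on low counts through their knockout levels and could hardly be called lower. Sycp2, a protein of the chromosome axis that binds TEX11, had 3.42, 6.93 and 5.92 CPM in knockout libraries and 0.506, 0.306 and 0.228 CPM in control libraries. It rose by 3.89 on the log2 scale (edgeR adjusted p = 0.000194). Ccnb1ip1, a ubiquitin ligase of crossover maturation, had 1.41, 2.36 and 1.36 CPM in knockout libraries and a lone count in control libraries (edgeR adjusted p = 0.000291). M1ap and Shoc1, both needed for crossovers, rose by 3.70 and 2.94, and lost their calls without knockout 2, control 2 or control 3. Shoc1 also lost its call without knockout 1. The fifth, the helicase gene Hfm1, rose by 0.89, lost its call under 7 of 11 alternatives, among them the omission of knockout 1, knockout 3, control 1 or control 2, and was not called against vehicle (edgeR adjusted p = 0.318). Msh5 stayed at 3.01 ± 0.55 CPM in knockout and 2.9 ± 0.88 CPM in control tissue, uncalled, and Msh4, Rnf212 and Rnf212b were too low to be tested.

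On the list of bridge and midbody genes around Tex14, all 9 were tested and 5 were higher in knockout than in control tissue. Rbm44, whose RNA-binding protein sits in germ cell bridges, had 3.97, 6.98 and 6.1 CPM in knockout libraries and 1.19, 0.957 and 2.28 CPM in control libraries. It rose by 1.97 (edgeR adjusted p = 0.00277) and was also called against vehicle. The others called, Racgap1, Ect2, Anln and Plk1, act in the division of all cells and rose by only 0.30 to 0.49. None of those 4 was called against vehicle, so that 1 of 9 remained there. Without knockout 2 or control 2, Ect2, Anln and Plk1 lost their calls, as did Anln without knockout 1 or control 1 and Plk1 without knockout 1 or control 3. Both also lost them with only the 2 groups in the fit, and Anln with the replicate number as a block.

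Of the genes of piRNA-directed methylation around Tex15, 3 of 8 could be tested and 2 were higher in knockout tissue. Mov10l1 had 947 counts in the knockout group and 1 in the control group, a ratio of 1237 with an exact 95% interval of 221 to 48892 (edgeR adjusted p = 3.75e-06). Piwil2, the PIWI protein that TEX15 binds, had 3.88, 7.23 and 3.79 CPM in knockout libraries and 0.357, 0.23 and 0 CPM in control libraries. It rose by 4.47 (edgeR adjusted p = 0.000603). Piwil4, the gene of the nuclear PIWI protein, stood at 0.124 ± 0.0692 CPM in knockout and 0.0488 ± 0.0452 CPM in control tissue, too low to be tested. Spocd1, Morc1, Dnmt3c and Dnmt3l were too low as well.

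The partners of the remaining genes showed few calls. Of the UBR2 pathway around Tex19.1, 3 genes were tested and none was called by edgeR or DESeq2, with 1 at an unadjusted p under 0.05 by each. Ubr2, the ubiquitin ligase gene whose protein binds TEX19.1, had 127 ± 3.68 CPM in knockout and 113 ± 11.7 CPM in control tissue. Ube2b, which encodes a ubiquitin-conjugating enzyme of the pathway, had 98.2 ± 8.23 CPM in knockout and 94.8 ± 7.4 CPM in control tissue. Around Tex101, 8 of 18 sperm surface genes were tested. Ly6k, whose protein binds TEX101, had 0.821, 1.38 and 1.01 CPM in knockout libraries and 0 counts in control libraries, at least 27.5-fold higher (edgeR adjusted p = 0.00466). It had 8 counts in the other wild type libraries, at 0.242 CPM in vehicle 3 and 0.0667 CPM in AzadC 3. Against vehicle it rose by 3.59 (edgeR adjusted p = 0.0299). Adam1a fell by 0.59 and lost its call without knockout 2 or control 2. The sperm surface genes Adam2 and Adam3 stayed at 0.0908 ± 0.0752 and 0.0796 ± 0.0744 CPM in knockout tissue, too low to be tested.

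Dpep1, the dipeptidase of kidney, rose by 2.11 in knockout tissue (edgeR adjusted p = 0.00866), with 3.24, 2.06 and 1.89 CPM in knockout libraries and 0.775, 0.344 and 0.513 CPM in control libraries. Dpep2 was too low to be tested. Among 8 CUL4 ligase genes and relatives of Dcaf8l, Ddb1, the ligase's adaptor, rose by 0.22 and Dcaf12l2 fell by 1.02. Neither was called against vehicle, and Dcaf12l2 lost its call under 7 of 11 alternatives, among them the omission of knockout 1, knockout 3 or any control library. Dcaf8 itself had 242 ± 13 CPM in knockout and 267 ± 13.3 CPM in control tissue and was not called.

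On the list of inner ear genes drawn up around Strc, none that could be tested was called higher. Strc itself carries no test in this comparison. Of 17 genes of stereocilia and the tectorial membrane, 9 were tested, with 0 higher and 1 lower in knockout than in control tissue by edgeR and by DESeq2, and 3 had an unadjusted p under 0.05 by each. The 1 called was Pcdh15, a tip link protein, which fell by 2.45 (edgeR adjusted p = 0.00574). It had 1.46, 1.23 and 1.12 CPM in knockout libraries and 4.56, 12.2 and 4.22 CPM in control libraries, and was not called against vehicle (edgeR adjusted p = 0.243). The other 8 were too low to be tested, among them Otog, which encodes a tectorial membrane protein, at 1.14, 0.688 and 0.118 CPM in knockout libraries and 0.179, 0.115 and 0 CPM in control libraries. The 6 hair cell markers summed to 32.5 to 36.3 CPM in knockout libraries and 29.3 to 34.4 CPM in control libraries. Nearly all of that was Myo7a, at 33.7 ± 2.17 CPM in knockout and 31.5 ± 2.73 CPM in control tissue, which is also used outside the ear. Of the 2 tested, 0 were called by edgeR or DESeq2, with 0 at an unadjusted p under 0.05 by each. Among the regulators, Pou4f3 had no count in any library, Atoh1 had none in knockout libraries, and Gfi1 had 0.0912, 0 and 0.237 CPM in knockout libraries and 0.119, 0.0766 and 0.228 CPM in control libraries.

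The 7 markers of primordial germ cell identity summed to 2.9 to 5.43 CPM in knockout libraries and 2.86 to 3.59 CPM in control libraries. Pou5f1, the pluripotency factor kept by these cells, had 0.0912, 0.393 and 0.237 CPM in knockout libraries and 0, 0 and 0.171 CPM in control libraries, and Utf1 was at 0 in all. The 15 spermatid markers summed to 2.42 to 3.37 CPM in knockout libraries and 1.08 to 2.2 CPM in control libraries, without overlap. AzadC libraries, at 1.39 to 2.44 CPM, overlapped the knockout range. Most of the sum was Spaca1, at 1.94 ± 0.11 CPM in knockout and 1.07 ± 0.615 CPM in control tissue. The share of all genes without overlap between knockout and control libraries is not given here. Of the 15, 8 had no count in any library, among them Prm2, Tnp1 and Ldhc. The 6 markers of somatic cells of the testis summed to 7.62 to 8.88 CPM in knockout libraries and 6.2 to 8.09 CPM in control libraries. Only 2, 1 and 2 genes of these 3 lists, in that order, had enough counts to be tested, so most could not be called. None of those tested was called by edgeR or DESeq2 in knockout against control. By each tool, 0, 0 and 1 of them had an unadjusted p under 0.05.

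Among the 9 genes 3 lie on the X chromosome, or 33.3%, against 623 of 17053 tested genes, or 3.65%. Of the genes counted only in knockout, 54 of 212 with a position lie there, or 25.5%. The Y-linked genes summed to 84.6 to 165 CPM in knockout libraries and 68.2 to 199.6 CPM in control libraries, and the groups overlapped. Xist stood at 1877 to 2270.3 CPM in knockout libraries and 1020.3 to 1409 CPM in control libraries, without overlap. Every knockout library also lay above all AzadC and vehicle libraries in Xist, a separation that held for 7% of all genes tested. Xist was not called (log2 change 0.71, SE 0.94), in a fit whose shared spread includes AzadC 1 at 0.866 CPM. The part of sex make-up in the X-linked values was not tested.

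Most genes beside the 9 were not called. The nearest tested gene without overlap on each side, taken from GENCODE M21, gave 18 neighbours, of which 3 were higher and 1 lower in knockout than in control tissue, where 7.83% of all genes tested were called higher and 6.43% lower. Against vehicle the counts were also 3 and 1. None was called in AzadC against vehicle by edgeR or DESeq2, with 1 at an unadjusted p under 0.05 by edgeR. Slc7a3, which encodes an amino acid transporter and lies 19.5 kb from Tex11, had 25.8, 29.6 and 18.7 CPM in knockout libraries and 1.04, 1.26 and 1.6 CPM in control libraries. It rose by 4.27 (SE 0.27, edgeR adjusted p = 4.63e-07). Dlg3, at 20.2 kb on the other side, had 68 ± 1.49 CPM in knockout and 73.5 ± 2.8 CPM in control tissue and was not called. Against vehicle, at 90.4, 80.6 and 94.3 CPM, it fell by 0.38 (edgeR adjusted p = 0.0107).

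Sectm1a, 64.9 kb from Tex19.1, had 8.76, 8.26 and 7.22 CPM in knockout libraries and 0.0298, 0.115 and 0 CPM in control libraries. It rose by 7.14 (SE 0.56, edgeR adjusted p = 2.85e-06), and its knockout libraries were closer together than those of Tex19.1. Mageb18, the nearest tested gene above Dcaf8l but 2709.2 kb away, had 0.958, 1.13 and 0.651 CPM in knockout libraries and 0 counts in all others. This is at least 23.5-fold above control (edgeR adjusted p = 0.00457). Mageb18 passed the filter on low counts through its knockout level, and only so became a neighbour and 1 of the 3 called higher. Purg, 99.3 kb from Tex15, fell by 0.53 (SE 0.13, edgeR adjusted p = 0.0165) and lost its call without knockout 2 and against vehicle.

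The nearest tested genes that do not overlap Tex14 and Strc were not called. Rad51c, a DNA repair gene whose start lies 111 bases from that of Tex14 on the opposite strand, had 12 ± 1.23 CPM in knockout and 12.2 ± 0.422 CPM in control tissue. Its log2 change was -0.02 (SE 0.11, edgeR adjusted p = 0.942). Catsper2, which encodes a subunit of the sperm calcium channel and lies 5.5 kb from Strc, had 1.48 ± 0.26 CPM in knockout and 1.98 ± 0.614 CPM in control tissue and was not called (edgeR adjusted p = 0.567). Septin4, 13.1 kb from Tex14 and also used in sperm, had 7.94, 5.11 and 2.25 CPM in knockout libraries and 2.62, 1.84 and 2.28 CPM in control libraries, and missed the threshold (edgeR adjusted p = 0.0507).

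**Figure D5:**
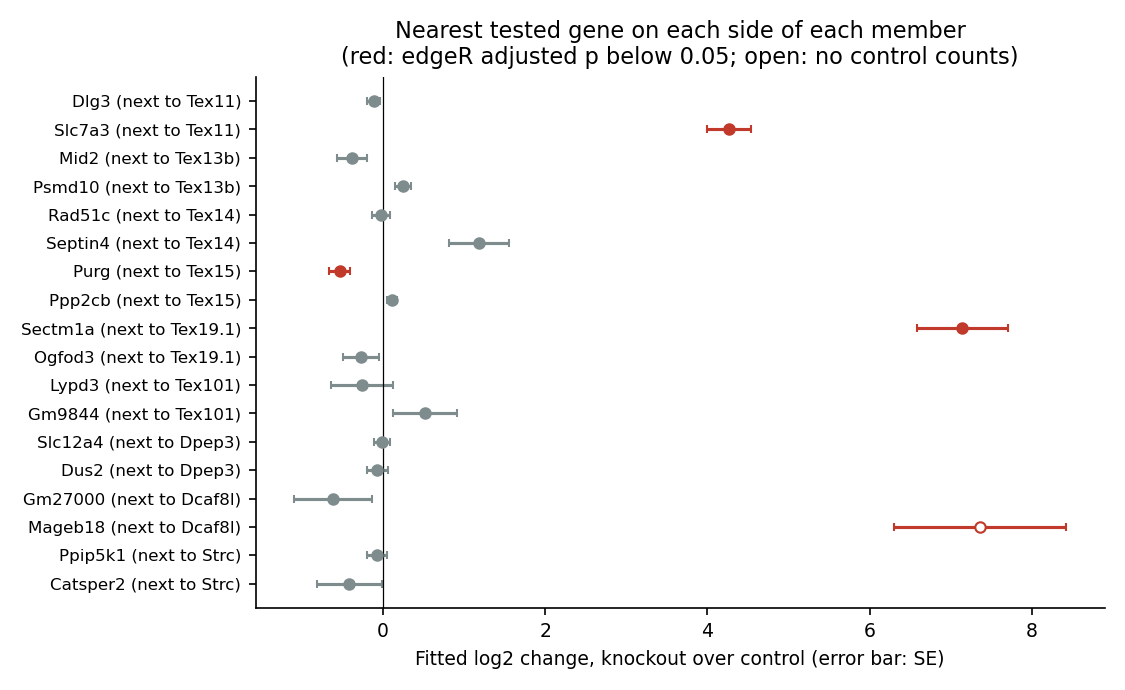
Fitted log2 change, knockout over control, of the nearest tested gene on each side of each of the 9 genes, with the SE as error bar; red marks an edgeR adjusted p under 0.05, and the open symbol marks Mageb18, whose fitted value is no bound since it had no control counts. Slc7a3, Sectm1a and Mageb18 lie far to the right, Purg lies left of 0, and the other 14 are grey.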

How the data were processed

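The authors deposited, per the file headers, expected counts, TPM and a mean transcript length (in bases, another quantity) for 56691 genes in each library. The submitters' processing notes name RSEM 1.3.1 and STAR 2.7.0, with FastQC, Trim Galore, mm10 and DESeq2. RSEM may divide reads between gene copies. Neither the strand setting nor the annotation release is given in the sources used here. Expected counts were rounded and tested with edgeR 4.0.16 under R 4.3.3 (glmQLFit, glmQLFTest), with filterByExpr by group (17335 genes), TMM factors of 0.985 to 1.01 and 1 mean per group over all 12 libraries. The threshold was a Benjamini-Hochberg adjusted p of 0.05 over all genes tested, for edgeR and for DESeq2 1.42.0 alike. The filter keeps a gene that is high enough in any group. Genes near 0 outside knockout, such as Tex12, Mageb18, Mov10l1, Ccnb1ip1, M1ap, Shoc1, Sectm1a and Ly6k, were thus tested through their knockout levels. CPM values are TMM-scaled, and folds against a group at 0 use a floor of 3 counts over that group. Depth was 12640536 to 33113790 counts per library, and floors and intervals cover counting error only. No replicate pair agreed within sampling noise, and each library counted as 1 replicate.

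The 9 genes and all lists were chosen with earlier results of these data known. Named are the 9 genes; of other Tex genes and each partner list those called, up to 8 and 4 by smallest adjusted p, or the 2 most abundant where none passed; the nearest tested gene on each side; and the 6 genes most alike. Msh5, Hfm1, Plk1, Tex261, Tex19.2 and further relatives and uncalled partners were named after their values were seen. Coordinates came from GENCODE M21 (GRCm38), matched by gene ID, and promoters from RefSeq (GRCm38.p6). The scripts were tested on simulated data. The alternatives were DESeq2, RLE scaling, no filter, a replicate block, only the groups compared, vehicle in place of control, and leaving out each library.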

Additional observations from a re-analysis of the deposited data

How the results depend on the processing

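Of the recomputed counts of called genes, 99 stayed within 1.5 times the reported count and 4 did not; for 67 of the 99 the reported count was 0, mostly in AzadC against vehicle, so they say little of stability. Partner genes higher in knockout than in control tissue numbered 15 and fell to 9 with vehicle libraries in place of control; leaving out 1 library gave 10 to 15. Partner genes lower in knockout tissue numbered 3, against 5 by DESeq2 and 1 with vehicle libraries, and 1 to 3 with 1 library left out, the lowest without control 2. The cause was not tested. The AzadC change of Tex15 turned to -0.18 on the log2 scale without AzadC replicate 1, and leaving out each library gave -0.18 to 0.49. Leaving out a library gave 2.81 to 5.22 for Tex11, the lowest without AzadC 3, and -1.13 to -0.34 for Tex14. With only AzadC and vehicle libraries, Tex11 and Tex14 gave no value. The AzadC changes of the other 6 genes, with 0 to 3 counts per group, were not followed through the alternatives.

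The correlation of deviations between libraries of the same replicate number ran between -0.184 and 0.277, with 0.277, 0.081 and 0.235 for knockout and control. Libraries of different numbers were not compared, so these values cannot decide whether replicate numbers pair the libraries. With the replicate number as a block, partner genes numbered 13 higher and 3 lower in knockout tissue, other Tex genes 1 higher and 0 lower, and AzadC called 0 of the 9 genes, 0 other Tex genes and 0 partner genes. The block gave AzadC changes of 4.67 for Tex11, -0.79 for Tex14 and 0.19 for Tex15. Depth limits Dpep3, with 10 to 20 counts per knockout library, and any AzadC level under 0.0507 CPM.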
